A study of Mus musculus with 8 samples.

Results

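The Slc25 genes encode the mitochondrial carriers, a family of membrane proteins that move metabolites, nucleotides and cofactors across the inner mitochondrial membrane. The genes were chosen by name. The mouse annotation holds 47 protein-coding genes with symbols starting Slc25a, 46 of which are in both deposited tables. Without Slc25a1, Slc25a13, Slc25a15 and Slc25a20, which the rule leaves out, 42 genes are described here, of 24375 genes in either table. Slc25a2 was not analysed here.

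The carriers are nuclear genes. Their proteins are made in the cytosol, pass the outer membrane through the TOM pore and are placed in the inner membrane by the TIM22 machinery. In liver the family links glycolysis, the urea cycle, ketone and glucose production and ATP export to the mitochondrial matrix. Most members exchange one substrate for another, so that the adenine nucleotide carriers send out ATP for ADP and the phosphate carrier brings in the phosphate for ATP synthesis. The ATP-Mg/phosphate carriers are a calcium-regulated branch that changes the total amount of adenine nucleotide in the matrix. CPEB4, the protein removed in these mice, binds the cytoplasmic polyadenylation element in the 3' untranslated region of mRNAs and affects their poly(A) tail and translation.

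The study sequenced RNA from the livers of Cpeb4 KO mice and of Wild-type mice, both as total RNA of flash-frozen liver and as RNA of purified endoplasmic reticulum from overnight-fasted mice. There were 8 libraries in 4 groups of 2. No treatment was given, and the labels state neither age, sex and strain nor how the knockout was made. They do not say that both libraries of a group are from different animals; where they are not, the p-values cover technical variation alone. The data are 2 tables of the authors' own knockout against wild-type comparison, called here the larger (23634 genes) and the smaller table (21201 genes). Neither names its preparation, so which of them is total liver and which is endoplasmic reticulum is not stated here.

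Each deposited table gives a mean normalised count per gene over 4 libraries, the log2 fold change and its standard error, a p-value from the authors' Wald test and an adjusted p. The deposited fold changes are shrunken towards 0, most of all where counts are few or libraries differ widely. A gene is called when its adjusted p is under 0.05. The deposited means carry enough digits that the whole read counts of the 4 libraries behind them could be worked out for all 42 carriers in both tables. These libraries carry no names. The side of each (knockout or wild type) was read from the sign of the authors' fold change, and on each side the deeper library is given first. The size factors were 1.24 and 0.904 on the knockout side and 1.26 and 0.717 on the wild-type side of the larger table, and 1.64, 0.839, 0.870 and 0.839 in the smaller.

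Cpeb4 gave the direction of the comparison. It had 506 and 580 normalised counts on the knockout side and 1511 and 1657 on the wild-type side of the larger table, and 193 and 225 against 689 and 634 in the smaller table. The knockout side was at 34.3% and 31.6% of the wild-type side, and Cpeb4 had the smallest p of each of the authors' deposited tables. Hepatocyte markers (Alb, Apoa1, Ttr, Cps1, Serpina1a and Tat) made up 5.92% of all normalised counts of the larger table and 3.06% of the smaller, while the 6 Kupffer cell markers made up 0.0140% and 0.00929%. None of the tested Kupffer cell, endothelial, stellate and cholangiocyte markers was called. Of the Kupffer cell markers, 5 of 6 had negative fold changes in the larger table and all 6 in the smaller (medians -0.08 and -0.08). Of the tested stellate markers, 4 of 4 and 2 of 3 were negative (medians -0.11 and -0.08). Endothelial markers were negative in 2 of 4 and 1 of 4, and cholangiocyte markers in 1 of 2 in each table. Tat, a hepatocyte enzyme of tyrosine breakdown, was called higher in the knockout in both of the authors' deposited tables (log2 fold changes 0.70 ± 0.11 and 0.72 ± 0.12). The other hepatocyte markers were not called. Among all 6, 4 fold changes were above 0 and 2 below in the larger table (median 0.03) and 3 were on each side in the smaller (median -0.03), with the thyroid hormone carrier Ttr the lowest in the authors' deposited tables (-0.19, p = 0.0150, and -0.24, p = 0.0257). In bulk RNA, fewer cells of a type and less RNA per cell cannot be told apart.

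Sequences are shown for the carrier that passed the authors' test, Slc25a25. They are also shown for Slc25a36 (not called in either table), the other carrier whose promoter holds the same cAMP response element. Sites are shown for some of the carriers whose 3' end holds the element that CPEB4 binds. RefSeq (GRCm38.p6, the mm10 assembly that the submitters' processing notes name) held promoters, from 250 bases before to 50 after a start site, for 32 of the 42 carriers, 41 promoters in all. The cAMP response element TGACGTCA, searched on both strands, lay in 2 of these 41 (4.88%) and in 1.79% of all 32851 promoters of this length. These were the third of the 3 start sites of Slc25a25 (chr2:32424017-32424316, minus strand; the element begins 150 bases upstream) and the start site of Slc25a36 (chr9:97110992-97111291, minus strand; 161 bases upstream). The element is in capitals.
Slc25a25: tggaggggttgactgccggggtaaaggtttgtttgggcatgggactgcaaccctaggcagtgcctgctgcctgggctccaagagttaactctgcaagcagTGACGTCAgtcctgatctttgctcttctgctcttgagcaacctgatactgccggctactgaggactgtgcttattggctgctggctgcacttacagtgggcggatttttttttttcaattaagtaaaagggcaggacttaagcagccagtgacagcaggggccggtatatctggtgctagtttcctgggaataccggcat
Slc25a36: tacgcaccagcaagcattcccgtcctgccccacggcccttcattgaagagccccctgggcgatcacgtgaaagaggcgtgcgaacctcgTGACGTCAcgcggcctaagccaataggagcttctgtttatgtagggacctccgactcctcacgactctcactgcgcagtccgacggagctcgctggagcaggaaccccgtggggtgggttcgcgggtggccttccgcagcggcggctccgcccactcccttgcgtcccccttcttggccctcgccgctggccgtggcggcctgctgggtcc

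The oestrogen-related receptor element TNAAGGTCA, the site of a family of factors known to regulate mitochondrial genes, was in 1.28% of all promoters and in none of the 41 carrier promoters on either strand. That says only that these letters are not in these windows.

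The cytoplasmic polyadenylation element, written in DNA letters as TTTTAT or TTTTAAT and searched on the transcript strand of the last 200 bases of the 3' untranslated region (GENCODE M21 transcripts), was in 13 of the 40 carriers with such a window (32.5%). It was in 28.2% of all 18150 genes with such a window, so the share among carriers was near that of other genes. Slc25a25, Slc25a22 and Slc25a21 had no match in the window. The sites of 4 carriers described in the results are given below with the element in capitals. Carriers with a site that is not shown include Slc25a11, Slc25a12, Slc25a17, Slc25a31, Slc25a32, Slc25a44, Slc25a48 and Slc25a53. The 4 carriers shown had positive log2 fold changes in both of the authors' deposited tables, as had Slc25a11, Slc25a12, Slc25a17 and Slc25a53. Others with the element did not. Slc25a44 was at -0.12 and -0.02, Slc25a32 at -0.08 and 0.05, and Slc25a48 at 0.03 and -0.09. Slc25a31, without an adjusted p, was negative in both. A link between the element and the fold change was not tested. Slc25a16 and Slc25a5 have 2 sites each.
Slc25a51: ttttttacttTTTTATgctctttgta
Slc25a34: tccaataaagTTTTATattttgtaaa
Slc25a16: cttttgtataTTTTAATttctggacta
Slc25a16, nearer the end: aaaagtaattTTTTATccttg
Slc25a5: ggcttgtctgTTTTATcagtggcaac
Slc25a5, nearer the end: caattatattTTTTATttcagtcact

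The carriers differed widely in level. Levels are given as the deposited mean normalised count per kb of exon, with the lowest and highest library in brackets. In both tables the order began with Slc25a5, Slc25a47, Slc25a39, Slc25a10 and Slc25a3. Slc25a5, the adenine nucleotide carrier of non-muscle tissue, was at 13382 per kb (12787 to 14591) in the larger table and 24732 (23496 to 27339) in the smaller. Slc25a47, a carrier known for its high expression in liver, was at 8838 (7196 to 9961) and 10614 (8568 to 11766). Slc25a39, which carries glutathione into the matrix, was at 8161 (7491 to 8931) and 7661 (7165 to 8399). In the larger table the library ranges of Slc25a47 and Slc25a39 overlapped, so their order there is not settled by these libraries; in the smaller table they did not overlap.

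Slc25a10, the dicarboxylate carrier, followed at 5089 per kb (4956 to 5263) in the larger table and 4929 (4658 to 5258) in the smaller. Slc25a3, the phosphate carrier, was at 2858 (2721 to 3150) and 4017 (3762 to 4508). The sixth place went to the glutamate carrier Slc25a22 in the larger table, at 2377 (2095 to 2743), and to the oxoglutarate carrier Slc25a11 in the smaller, at 2702 (2589 to 2900). In the larger table the library ranges of Slc25a22 overlapped those of Slc25a3 above it and of Slc25a11 (1962 to 2206) below it. Within each of the 4 libraries of that table, however, Slc25a3 was above Slc25a22 per kb, and Slc25a22 above Slc25a11. The leading 6 genes made up 81.7% of the summed level per kb of all 42 carriers in the larger and 89.0% in the smaller table. All 42 together held 0.422% and 0.468% of the normalised counts. The muscle and heart adenine nucleotide carrier, Slc25a4, was at 71.5 and 113 per kb, far under Slc25a5.

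At the other end, the germ-line adenine nucleotide carrier Slc25a31 was at 4.85 and 4.83 per kb, and Slc25a41 and Slc25a54 had at most 1 read in any library. 6 carriers had means too low for an adjusted p in the larger table (Slc25a18, Slc25a27, Slc25a31, Slc25a41, Slc25a43 and Slc25a54). The smaller table left out Slc25a24 and Slc25a35 as well. This leaves 36 carriers tested in the larger and 34 in the smaller table.

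**Figure D1:**
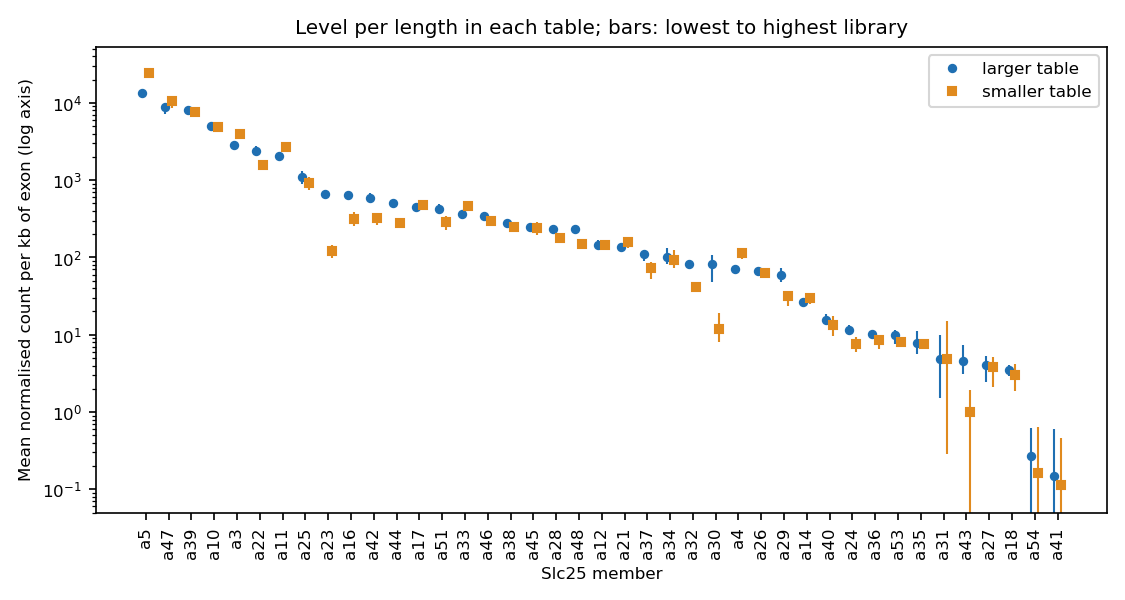
Level of the Slc25 carriers per kb of exon (log axis), ordered by the larger table; circles are the larger and squares the smaller table, and bars run from the lowest to the highest library. Slc25a5 leads in both tables at 13382 and 24732 per kb, and Slc25a23 and Slc25a30 sit well lower in the smaller table.

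Between the genotypes, 1 carrier was called. Slc25a25, an ATP-Mg/phosphate carrier, rose in the knockout in both of the authors' deposited tables, by 0.42 ± 0.09 (log2, SE) in the larger and 0.43 ± 0.11 in the smaller. The other 35 and 33 tested carriers did not pass the authors' test, and none passed as lower. Among all genes, the authors called 0.296% of the 14180 genes tested in the larger and 0.266% of the 11661 tested in the smaller were called. By direction, the larger table called 0.0917% higher and 0.205% lower in the knockout, and the smaller 0.163% higher and 0.103% lower. The median log2 fold change of the tested carriers was 0.02 in the larger table (-0.001 over all tested genes) and 0.04 in the smaller (0.001 over all).

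All knockout-side libraries lay above all wild-type-side libraries in 13 of 36 carriers of the larger table (36.1%) and in 10 of 34 of the smaller (29.4%). Among all tested genes with recovered counts this held for 18.2% and 18.4%. The reverse order was seen in 4 carriers (11.1%) and 3 carriers (8.82%), against 19.5% and 20.4% of all such genes. The other 19 and 21 carriers had overlapping groups. With 2 libraries on a side this is a description of these libraries and no test.

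**Figure D2:**
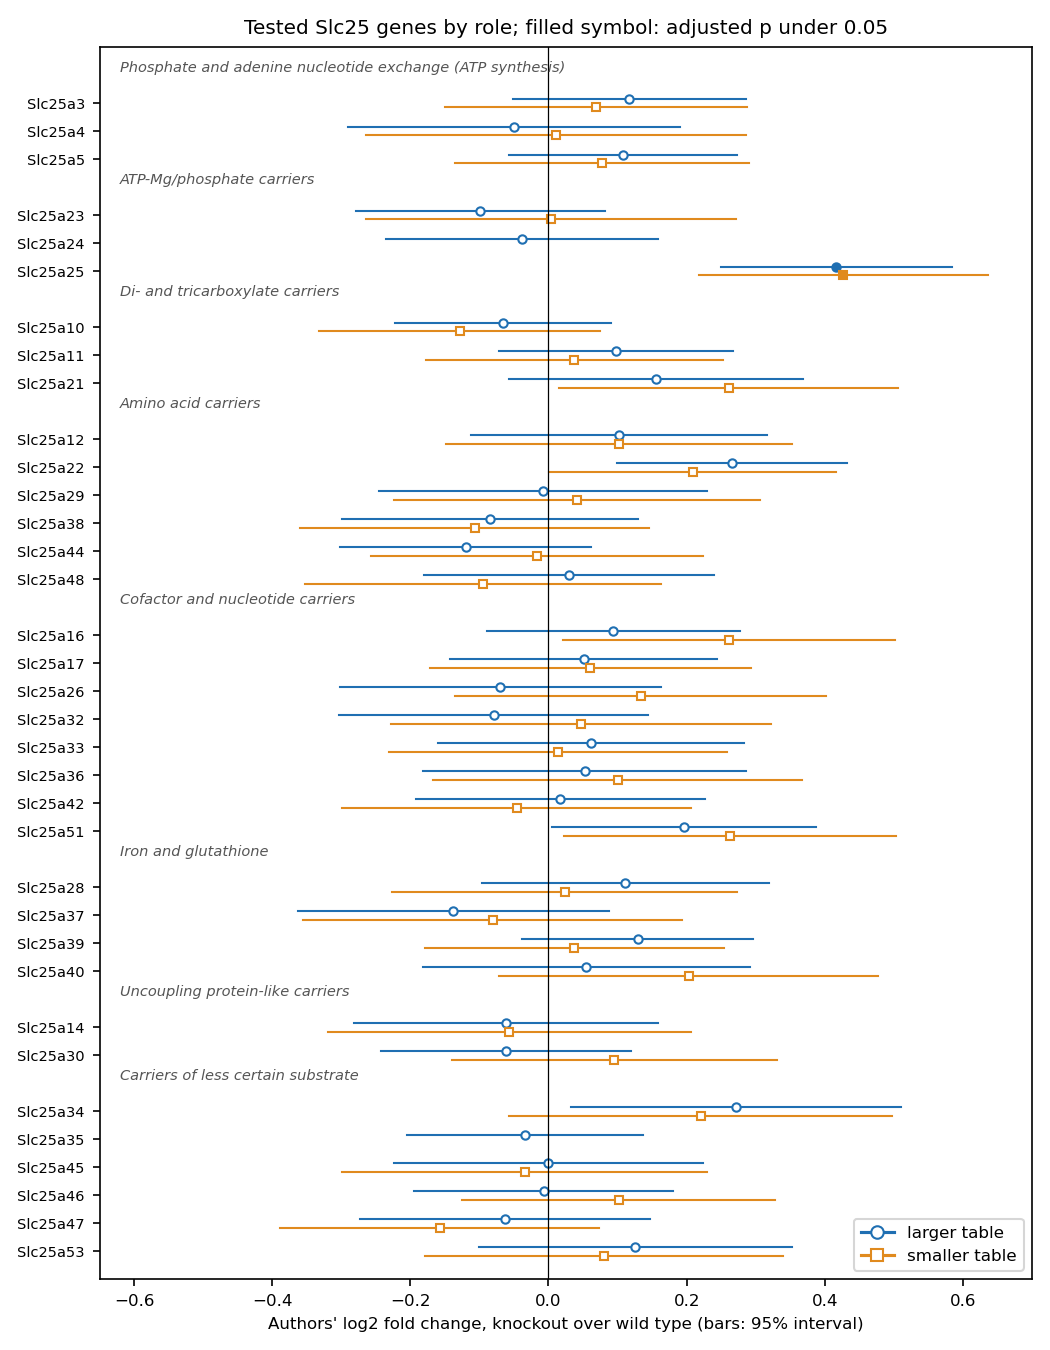
Authors' log2 fold change of knockout over wild type for tested Slc25 carriers, grouped by role, with 95% intervals; circles are the larger and squares the smaller table, and filled symbols passed the authors' adjusted p of 0.05. Slc25a25 is the only carrier with filled symbols, at 0.42 and 0.43.

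Among the ATP-Mg/phosphate carriers, Slc25a25 (ENSMUSG00000026819; chr2:32414487-32451445, minus strand) had 9619 and 10325 normalised counts on the knockout side and 6967 and 7283 on the wild-type side of the larger table. In the smaller table it had 8364 and 8757 against 6144 and 5840. Every knockout-side library was thus above every wild-type-side library in both tables, and libraries of 1 side lay close together. The authors' deposited tables give p = 1.06e-06 (adjusted p = 0.000791) in the larger and p = 6.38e-05 (adjusted p = 0.0298) in the smaller by their DESeq2 Wald test. The log2 ratio of the recovered group means was 0.49 and 0.51, and with each library left out in turn it stayed between 0.43 and 0.54 in the larger and 0.48 and 0.55 in the smaller table.

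The gene overlaps Naif1 on the opposite strand, and no source used here says whether the counting took strand into account. Naif1 had 146 and 154 normalised counts against 168 and 164 in the larger table and 118 and 116 against 94.3 and 134 in the smaller, a small fraction of the counts of Slc25a25. The smaller table's call for Slc25a25 was lost when p-values were adjusted over every gene with a p-value, without the authors' filter on low means (adjusted p = 0.0501).

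The other members of this branch gave no call. Slc25a23 had 3234 and 3595 normalised counts on the knockout side against 3596 and 3819 in the larger table, a log2 fold change of -0.10 ± 0.09 in the authors' deposited table. In the smaller table it had 529 and 778 against 715 and 582, with overlapping groups and a fold change of 0.003 ± 0.14 in the authors' deposited table. Slc25a24 was tested in the larger table alone, at -0.04 ± 0.10 in the authors' deposited table with a mean of 39.97 counts.

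**Figure D3:**
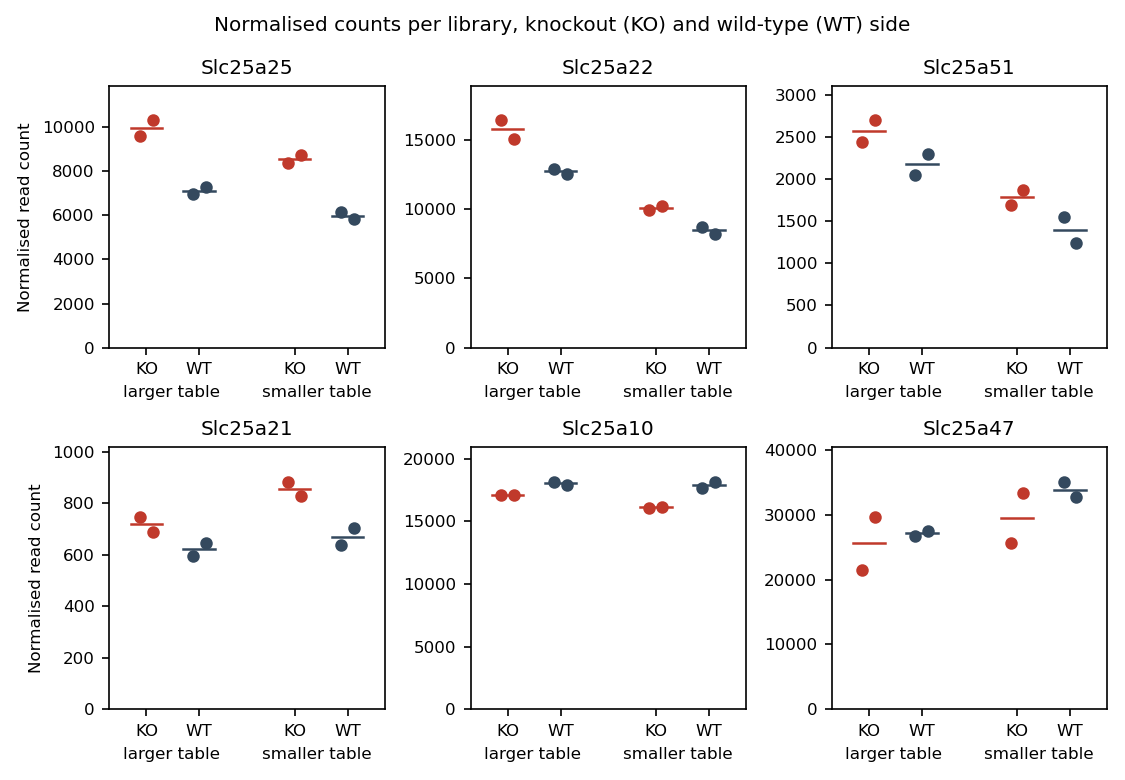
Normalised read count in each recovered library for 6 carriers; points are libraries, short lines the mean of the 2 libraries of a side, red the knockout (KO) and dark blue the wild-type (WT) side. The 2 sides lie apart in both tables for Slc25a25 and also for Slc25a22, Slc25a51, Slc25a21 and Slc25a10, which were not called. Those of Slc25a47 overlap.

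The carriers of ATP synthesis itself differed little. The phosphate carrier Slc25a3 had 17481 and 15737 normalised counts on the knockout side and 15125 and 15101 on the wild-type side of the larger table. Slc25a5 had 24017 and 21936 against 21047 and 21111. Both sides were apart for these genes in the larger table, but the smaller knockout-side value lay close to the wild-type side, and neither passed the authors' test (deposited log2 fold changes 0.12 ± 0.09, p = 0.175, and 0.11 ± 0.08, p = 0.202). In the smaller table the groups of both overlapped, with 0.07 ± 0.11 and 0.08 ± 0.11 in the authors' deposited table. Slc25a4 was at -0.05 ± 0.12 and 0.01 ± 0.14 in the authors' deposited tables.

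Slc25a5 is the only carrier of which over 25% of its 31-base words (49.4%) occur in other annotated genes, so its reads can be shared with copies. Slc25a5-ps, its annotated pseudogene, had a mean of 1377 counts in the larger table, 6.25% of Slc25a5 and between 6.01% and 6.42% in single libraries. In the smaller table it had a mean of 10.2 counts, 0.0252% of Slc25a5. The level of Slc25a5 is therefore uncertain by the reads given to such copies.

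Of the di- and tricarboxylate carriers, Slc25a21, which carries oxodicarboxylates from amino acid breakdown, had 748 and 688 normalised counts against 596 and 647 in the larger table, and 884 and 828 against 637 and 703 in the smaller. The knockout side was above in both tables, with log2 fold changes of 0.16 ± 0.11 (p = 0.153) and 0.26 ± 0.13 (p = 0.0371) in the authors' deposited tables; neither survived adjustment. Slc25a10 was the reverse. It had 17124 and 17121 counts on the knockout side against 18182 and 17897 in the larger table, and 16093 and 16168 against 17699 and 18166 in the smaller. These libraries did not overlap, yet the difference was small, at -0.07 ± 0.08 (p = 0.406) and -0.13 ± 0.10 (p = 0.216) in the authors' deposited tables. Slc25a11, which exchanges oxoglutarate for malate in the malate-aspartate shuttle, was at 0.10 ± 0.09 and 0.04 ± 0.11 in the authors' deposited tables.

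Among the 7 amino acid carriers, none passed the authors' adjusted p. The glutamate carrier Slc25a22 (ENSMUSG00000019082; chr7:141429744-141437892, minus strand) came closest. It had 16435 and 15086 normalised counts on the knockout side and 12900 and 12553 on the wild-type side of the larger table, and 9946 and 10250 against 8728 and 8240 in the smaller. All knockout-side libraries were higher in both. The authors' deposited tables give log2 fold changes of 0.27 ± 0.08 (p = 0.00171, adjusted p = 0.250) and 0.21 ± 0.11 (p = 0.0484). Its near relative Slc25a18 had under 8 counts in every library of both tables.

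The lowest fold changes of the group were those of Slc25a44, a carrier of branched-chain amino acids, in the larger table and of Slc25a38, the glycine carrier needed for haem synthesis, in the smaller. Slc25a44 had 1697 and 1743 normalised counts against 1923 and 1879 in the larger table (-0.12 ± 0.09, p = 0.196 in the authors' deposited table) and overlapping groups in the smaller (-0.02 ± 0.12). Slc25a38 was at -0.09 ± 0.11 and -0.11 ± 0.13 in the authors' deposited tables, with overlapping groups in both. Slc25a12, an aspartate/glutamate carrier, was at 0.10 ± 0.11 and 0.10 ± 0.13 there, Slc25a29, a carrier of basic amino acids, at -0.01 ± 0.12 and 0.04 ± 0.13, and Slc25a48, whose substrate is less settled, at 0.03 ± 0.11 and -0.09 ± 0.13.

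The 9 carriers of cofactors and nucleotides were all tested in both tables, and none was called. The NAD carrier Slc25a51 (chr4:45395923-45408766, minus strand) had 2440 and 2697 normalised counts against 2044 and 2298 in the larger table, and 1693 and 1872 against 1552 and 1242 in the smaller. The knockout side was above in both, with log2 fold changes of 0.20 ± 0.10 (p = 0.0445) and 0.26 ± 0.12 (p = 0.0324) in the authors' deposited tables. Slc25a16 had 3139 and 3199 against 2750 and 3112 in the larger table (0.09 ± 0.09, p = 0.315), where the sides almost met, and 1510 and 1838 against 1395 and 1230 in the smaller (0.26 ± 0.12, p = 0.0331 in the authors' deposited table). None of these p-values survived adjustment over the table.

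The shrunken fold changes of the rest of the group lay near 0. Slc25a26, the S-adenosylmethionine carrier, had 296 and 324 normalised counts against 320 and 351 in the larger table and 328 and 324 against 278 and 285 in the smaller, with opposite signs in the authors' deposited tables (-0.07 ± 0.12 and 0.13 ± 0.14, p = 0.329 in the latter). Slc25a32, which carries folate and FAD, was lowest of the group in the authors' deposited larger table at -0.08 ± 0.11. The pyrimidine nucleotide carriers Slc25a33 and Slc25a36 were at 0.06 ± 0.11 and 0.05 ± 0.12 in the authors' deposited larger table and 0.01 ± 0.12 and 0.10 ± 0.14 in the smaller. The coenzyme A carrier Slc25a42 was at 0.02 ± 0.11 and -0.05 ± 0.13 and the peroxisomal carrier Slc25a17 at 0.05 ± 0.10 and 0.06 ± 0.12 there. For the scarce Slc25a36 the log2 ratios of recovered counts were larger, 0.14 and 0.28, with the knockout side above in both tables.

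Among the carriers of iron and glutathione, Slc25a37 and Slc25a28 are the mitoferrins, which bring iron into the matrix for haem and iron-sulphur clusters. Slc25a37, the mitoferrin of developing red cells, had 538 and 694 normalised counts against 735 and 680 in the larger table and 322 and 523 against 443 and 482 in the smaller. The first knockout-side library was the lowest of the 4 in each table, and the groups overlapped (-0.14 ± 0.11, p = 0.229, and -0.08 ± 0.14, p = 0.564, in the authors' deposited tables). Without 1 or the other knockout-side library, the log2 ratio of its recovered counts in the larger table was -0.03 or -0.39, against -0.20 with all 4. Slc25a28, the mitoferrin of other tissues, was at 0.11 ± 0.11 and 0.02 ± 0.13 there. The summed counts of the erythroid marker list (chiefly the beta globins Hbb-bt and Hbb-bs and the alpha globins Hba-a2 and Hba-a1, with Slc4a1 under 3 and Alas2 not analysed here) were 11228 and 9080 against 12657 and 13959 in the larger and 13110 and 10140 against 17839 and 15420 in the smaller table. All 4 globins lay below in the knockout-side libraries, each with an unadjusted p under 0.05 and none with an adjusted p under 0.05 in the authors' deposited tables, and their part in the Slc25a37 values was not tested.

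Slc25a39 had 24614 and 22712 normalised counts against 21991 and 20645 in the larger table (0.13 ± 0.09, p = 0.129 in the authors' deposited table). In the smaller table the groups overlapped (0.04 ± 0.11). Slc25a40, the other glutathione carrier, was far scarcer, at 15.6 per kb in the larger and 13.4 in the smaller table. It had 157 and 117 counts against 134 and 117 in the larger table and 145 and 117 against 107 and 81.1 in the smaller, with 0.05 ± 0.12 and 0.20 ± 0.14 (p = 0.147) in the authors' deposited tables. The log2 ratio of its recovered counts in the smaller table was 0.48, and it ran from 0.29 to 0.69 when each library was left out in turn.

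The uncoupling protein-like carriers were scarce, and none was called. Slc25a30 had 218 and 449 normalised counts against 488 and 368 in the larger table and 36.5 and 88.2 against 52.9 and 39.3 in the smaller. Libraries of 1 side differed more than the sides did, and the first knockout-side library was the lowest in each table. Its log2 fold changes had opposite signs in the authors' deposited tables, -0.06 ± 0.09 and 0.10 ± 0.12. These are shrunken, and the log2 ratios of its recovered counts were -0.36 and 0.43. Slc25a14 was at -0.06 ± 0.11 and -0.06 ± 0.13 in the authors' deposited tables, with recovered ratios of -0.21 and -0.16. Slc25a27, without an adjusted p, had 21.04 and 18.8 counts against 14.3 and 9.76 in the larger table and 18.2 and 20.3 against 13.8 and 8.35 in the smaller. Ucp1, the uncoupling protein of brown fat, had means of 2.60 and 4.91 counts.

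Of the 8 carriers of less certain substrate, none was called. Slc25a34 (chr4:141618824-141623821, minus strand) had 355 and 271 normalised counts against 228 and 219 in the larger table (0.27 ± 0.12, p = 0.0257, adjusted p = 1.00 in the authors' deposited table). In the smaller table it had 337 and 234 against 194 and 238, with overlapping groups (0.22 ± 0.14, p = 0.119 in the authors' deposited table). Slc25a47 had 21481 and 29732 against 26749.8 and 27564 in the larger and 25575 and 33360.3 against 35121 and 32670.3 in the smaller table. Its fold change was the lowest of all tested carriers in the authors' deposited smaller table (-0.16 ± 0.12, p = 0.181). The first knockout-side library alone was low, and without it the log2 ratio of the smaller table was -0.02.

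Slc25a46, a protein of the outer membrane tied to mitochondrial shape, was at -0.01 ± 0.10 and 0.10 ± 0.12 in the authors' deposited tables. Slc25a45 was at -0.0001 ± 0.11 and -0.03 ± 0.13, Slc25a53 at 0.13 ± 0.12 and 0.08 ± 0.13, and Slc25a35, tested in the larger table only, at -0.03 ± 0.09 there. The log2 ratios of recovered counts of Slc25a53 were 0.39 and 0.24, with the knockout side above in both tables. That of Slc25a35 was -0.21 in the larger table, with overlapping groups. Slc25a43 had means of 8.07 and 1.77 counts. Among the carriers without an adjusted p, Slc25a31 had 0.608 and 3.58 counts on the knockout side and 32.2 and 4.77 on the wild-type side of the smaller table (unadjusted p = 0.0341 in the authors' deposited table), a difference that rested on 1 library. In the larger table it had 3.24 and 9.96 against 7.16 and 20.9.

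The fold changes of the 2 tables were set against each other by a z test of their difference over the summed squared standard errors. Whether the tables share mice is not stated, and the test takes them as independent. No carrier of 34 tested in both tables passed, and none had an unadjusted p under 0.05. Of the 11604 genes tested in both, 0.0172% (2 genes) passed, and 16 had an unadjusted p under 0.05. With so few small p-values over all genes, the lack of a call among carriers does not show that the genotype effects are alike. The smallest p among the carriers was 0.262, for Slc25a26, at 0.20 on the log2 scale (smaller minus larger; 95% interval -0.15 to 0.56). For Slc25a25 the difference was 0.01 with an interval of -0.26 to 0.28.

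Mean levels of several carriers differed between the tables. The tables were normalised separately, and this difference was not tested. The median log2 ratio of smaller over larger table was -0.25 over 11604 genes. Slc25a23 had a mean of 3561 counts in the larger and 651 in the smaller table, so that it was 5.47 times as high in the larger, and its ratio of smaller over larger was at percentile 2.70 of all genes. Slc25a30, with 381 and 54.2 counts, was 7.03 times as high in the larger table and at percentile 1.90. Slc25a5 was at the other end, with 22028 and 40709 counts (percentile 95.6), and Slc25a4 was at percentile 91.3, with 168 and 267 counts. The pseudogene Slc25a5-ps had 6.25% of the mean of Slc25a5 in the larger and 0.0252% in the smaller table. Whether shared reads were assigned alike in both tables was not tested. Slc25a25, with 8548 and 7276, was at percentile 51.3. For Slc25a23, Slc25a30, Slc25a5 and Slc25a4 no library of one table reached into the range of the other. This was not particular to them. It also held for many other carriers, among them Slc25a3, Slc25a11, Slc25a22 and Slc25a44, and its share over all genes was not counted.

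**Figure D4:**
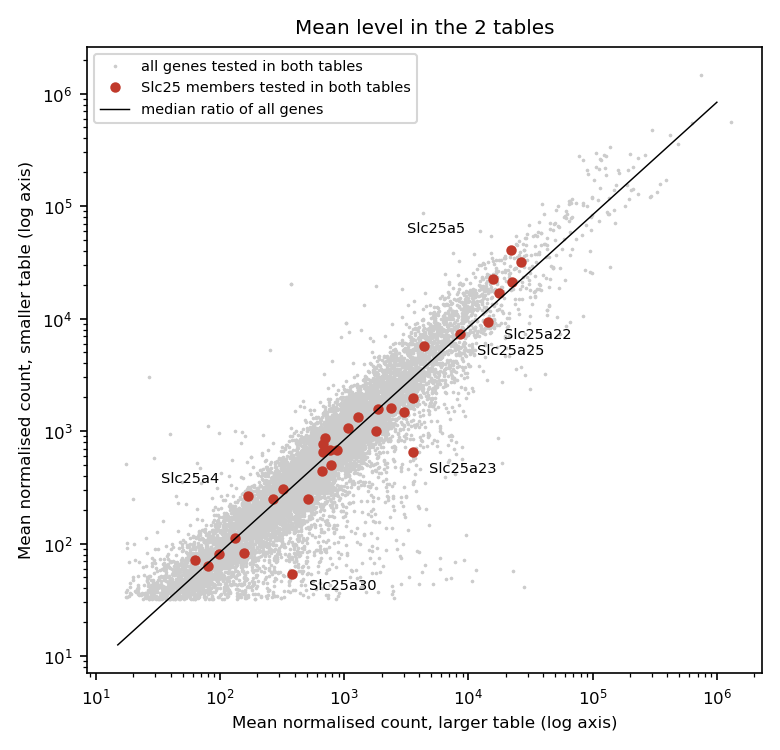
Mean normalised count of each gene in the larger (x) and the smaller table (y), both on log axes; grey points are genes tested in both tables, red points the carriers among them, and the line is the median ratio of all genes. Slc25a23 and Slc25a30 lie under the line at 3561 against 651 and 381 against 54.2 counts, and Slc25a5 above it. Reads of Slc25a5 can be shared with copies.

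The machinery around the carriers was described by lists of genes chosen by function. Of 13 genes of carrier import by the TIM22 route, 12 were tested, with 10 positive and 2 negative log2 fold changes in the authors' deposited larger table and 8 and 4 in the smaller. None was called in either table. Over all tested genes, 49.6% of values were positive in the larger and 50.3% in the smaller table. Among the carriers, 19 of 36 and 24 of 34 were positive. The outer membrane pore gene Tomm40 was at 0.17 ± 0.10 (p = 0.102) and 0.06 ± 0.12, its receptor Tomm20 at 0.09 ± 0.09 and 0.17 ± 0.12 (p = 0.153), and Timm8a1, a chaperone of the intermembrane space, at 0.11 ± 0.09 and 0.14 ± 0.11 in the authors' deposited tables.

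All 5 outer membrane channels and carrier-like proteins were tested and none was called, with 5 positive values in the larger and 4 positive and 1 negative in the smaller of the authors' deposited tables. Mtch2, a carrier-like insertase of the outer membrane, was at 0.12 ± 0.09 and 0.13 ± 0.11 there, Vdac2, a channel for metabolites, at 0.07 ± 0.09 and 0.04 ± 0.11, and Mtch1 at 0.03 ± 0.09 and -0.11 ± 0.11. Of 20 other inner membrane transport genes (uncoupling proteins, pyruvate carrier, sideroflexins, calcium uniporter and ABC transporters), 15 were tested, with 9 positive and 6 negative values in each table and no call. The calcium uniporter pore Mcu was at 0.14 ± 0.10 and 0.06 ± 0.13 and its regulator Smdt1 at 0.01 ± 0.09 and -0.10 ± 0.12 in the authors' deposited tables. The median of the import list was 0.07 in each of the authors' deposited tables, that of the channels 0.07 and 0.04, and that of the other transporters 0.01 and 0.01.

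Slc25a15, the ornithine carrier of the urea cycle and not among the 42 genes, had 31042 and 22778 normalised counts against 18399 and 18936 in the larger table and 29264 and 22364 against 17269 and 16410 in the smaller. The authors' deposited tables give it log2 fold changes of 0.40 ± 0.11 (adjusted p = 0.0591) and 0.48 ± 0.12 (adjusted p = 0.0238). Of the other family genes left out here, Slc25a1, Slc25a13 and Slc25a20, none was called in the authors' deposited tables.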

How the data were processed

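The authors aligned reads to mm10 with STAR 2.3.0e and compared genotypes with DESeq2 1.6.3, per the submitters' processing notes, and no source used here names the counting step. The deposited tables give, as the authors made them, a signal (the mean of size-factor-normalised counts over 4 libraries), the log2 fold change and its standard error (knockout over wild type, shrunken towards 0), a Wald score, a p-value and a Benjamini-Hochberg adjusted p-value. No per-library values are given in them.

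The members and all gene lists were chosen with earlier results of these data known. The rule names every member past the authors' adjusted p, the 10 members of smallest p in each table, the extremes of each role group and the 6 highest levels; other members may be named with their group. Gene names, lengths and overlaps came from GENCODE M21 (23484 of 23634 and 21080 of 21201 identifiers matched), and 22 of the 42 members overlap another annotated gene. Values of some genes are not reported here.

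Whole read counts were recovered (Python 3.11.15, numpy 2.4.6, scipy 1.17.1). A deposited mean is a sum of 4 whole numbers, each times the step that 1 read is worth in its library. These steps came from genes with 1 read in all, and lattice enumeration gave the whole-number solution that matches the mean to 15 significant digits. For means of 1000 or more, where several solutions fit, the one that also gives the deposited fold change and standard error within 1e-06 under the authors' model was taken. This settled 14088 of 14199 genes considered in the larger table and 11570 of 11686 in the smaller. Of the rest, 99 and 105 had means over 50000 and were not tried. Several solutions remained for 10 genes in each table, and none was found for 2 and 1. On simulated counts for these tables, 297 of 297 and 299 of 299 genes with means of 20 to 1000 were recovered, 118 of 118 in each with means of 1000 to 10000, and 40 of 40 and 39 of 39 with means of 10000 to 50000. The simulated fold changes and standard errors came from the same model, at a single dispersion. The simulation therefore shows that counts can be found under that model, and cannot test the model itself. Recovered counts are described and not tested, because each has no sample name. Summed means were 37351703 and 36848665 normalised counts. Standard errors of tested members ran from 0.08 to 0.12 in the larger and 0.10 to 0.14 in the smaller table. They belong to the shrunken fold changes and do not give the precision of the measured ratios. In the larger table Slc25a35, with a mean of 28.7 counts, had a standard error of 0.087. Slc25a3, with a mean of 15861, had 0.086.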

Additional observations from a re-analysis of the deposited data

How the results depend on the processing

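Slc25a25 was called in both of the authors' deposited tables as deposited, with adjustment over genes of mean at least 100 (adjusted p = 0.000727 and 0.0247), with a threshold of 0.1, and without the carrier whose words are shared with other genes. With adjustment over every gene with a p-value, the larger table still called it (1 carrier) and the smaller did not, where the count of called carriers fell to 0 (adjusted p = 0.0501 against 0.0298 as deposited), because more genes were tested. The count at an unadjusted p under 0.05 by the authors' Wald test was 4 of 36 tested carriers in the larger and 5 of 34 in the smaller table. Over all tested genes it was 514 of 14180 and 479 of 11661. The medians of the carriers' log2 fold changes moved by less than the spread of the carriers under each of 3 alternatives, and the difference between tables gave no call with both tables centred. Of the values for single carriers under an alternative, 100 moved by less than the standard error or kept their side of the threshold and 20 moved by more, none with a change of sign for a called carrier. Leaving out each library in turn kept the sign of the log2 ratio in all 20 cases (10 carriers in each table). These were the 10 tested carriers of smallest p in each table, so they were picked from the same values. Where the sides do not overlap, leaving out 1 library cannot change the sign, so the kept signs are no test. The ratio of Slc25a34 ran from 0.28 to 0.67 in the larger and 0.11 to 0.64 in the smaller table, that of Slc25a51 from 0.16 to 0.33 and 0.20 to 0.52, that of Slc25a16 in the smaller from 0.20 to 0.49, that of Slc25a40 in the smaller from 0.29 to 0.69, that of Slc25a47 in the smaller from -0.41 to -0.02 and that of Slc25a37 in the larger from -0.39 to -0.03. In the larger table those of Slc25a3, Slc25a5 and Slc25a39 ran from 0.06 to 0.21, 0.06 to 0.19 and 0.09 to 0.21. No paired analysis was possible because the deposited tables name no sample and the recovered libraries could not be matched to the numbered samples of the labels. With 2 libraries on a side, and standard errors of 0.08 or more, a fold change of the size seen for most carriers could not be told from 0.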
